A study of Mus musculus and Rattus norvegicus with 28 samples.

Results

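Accessible chromatin was compared between mouse cardiomyocytes of postnatal day 7 (P7) and postnatal day 3 (P3) from the ATAC-seq peak lists of 2 libraries at each age. Overlapping peaks of the 4 lists were merged, and a merged region counted as gained when both P7 libraries and neither P3 library held a peak in it, and as lost in the opposite case. Of 99577 merged regions, 204 were gained (0.205%) and 8870 were lost (8.91%), while 26700 were held by all 4 libraries. The lists were also cut to equal length, at the 35898 peaks with the highest −log10 q of each. Then 53554 merged regions remained, of which 1397 were gained (2.61%) and 2218 were lost (4.14%). The last peak kept had a −log10 q of 12.5 and 6.15 in the P3 libraries and 4.63 and 1.31 in the P7 libraries. Equal length was therefore not equal stringency. The 8 mouse ATAC-seq libraries of the series, which also cover embryonic day 18.5 (E18.5) and postnatal day 1 (P1), gave 113857 merged regions.

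The animals were wild-type C57BL/6 mice of either sex, and no group carried a transgene or received a treatment. Cells came from left ventricles digested with trypsin and collagenase, and cells that attached to uncoated dishes were discarded to remove non-cardiomyocytes. For ATAC-seq, counted cells of either age were exposed to the transposase Tn5, and RNA-seq was made from separate libraries, 2 at each age. The study describes the libraries as biological replicates, and the number of animals behind each library is not given in the sources used here.

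In ATAC-seq, Tn5 inserts adaptors where DNA is not wrapped in nucleosomes, so peaks mark promoters and distal elements that transcription factors can reach. Promoters of housekeeping genes are open in most cell types, whereas distal elements differ more between cell types and ages. In heart muscle cells, MEF2, GATA and TEAD factors and SRF act at muscle genes, while AP1, a dimer of FOS and JUN proteins, responds to growth and stress signals. In the first week after birth mouse cardiomyocytes leave the cell cycle and turn from glycolysis towards fatty acid oxidation.

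Sequences of a few regions are shown because the results below turn on them, read from the plus strand of mm10 over 200 bp at the region's midpoint. Capitals mark a match, on either strand, to the motif of AP1, which is spelled TGAGTCA, or to those of MEF2 or SRF. They also mark the motif of TEAD factors, which is spelled CATTCC. The GATA motif was searched as AGATAA and is marked in the same way. The regions in Celf2 and Rasl12 followed from a rule, as the strongest regions of the full lists that held an AP1 or MEF2 match or lay within 50 kb of a gene whose RNA was called. The other 8 were chosen after their values were seen.
Lost, intron of Celf2, chr2:7115911-7116110: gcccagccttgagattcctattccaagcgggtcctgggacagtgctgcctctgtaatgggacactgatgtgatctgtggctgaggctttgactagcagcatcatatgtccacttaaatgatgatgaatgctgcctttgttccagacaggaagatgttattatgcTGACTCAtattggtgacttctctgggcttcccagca
Lost, intron of Rasl12, chr9:65404448-65404647: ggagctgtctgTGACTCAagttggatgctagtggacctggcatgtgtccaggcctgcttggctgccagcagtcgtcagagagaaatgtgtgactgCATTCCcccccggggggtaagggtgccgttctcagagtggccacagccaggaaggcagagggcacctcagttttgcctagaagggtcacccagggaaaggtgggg
Lost, intron of Nedd9, chr13:41331007-41331206: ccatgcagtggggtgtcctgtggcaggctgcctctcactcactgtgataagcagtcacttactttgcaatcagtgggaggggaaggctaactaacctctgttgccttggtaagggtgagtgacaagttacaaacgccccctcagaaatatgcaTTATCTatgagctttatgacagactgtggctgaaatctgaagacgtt
Lost, 1833 bp from a transcript start of Tnnt2, chr1:135834422-135834621: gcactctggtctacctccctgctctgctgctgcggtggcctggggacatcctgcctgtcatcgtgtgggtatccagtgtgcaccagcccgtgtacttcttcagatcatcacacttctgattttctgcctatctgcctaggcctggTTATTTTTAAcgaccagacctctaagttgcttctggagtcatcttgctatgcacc
Gained, 15069 bp from a start of Peg10, chr6:4762376-4762575: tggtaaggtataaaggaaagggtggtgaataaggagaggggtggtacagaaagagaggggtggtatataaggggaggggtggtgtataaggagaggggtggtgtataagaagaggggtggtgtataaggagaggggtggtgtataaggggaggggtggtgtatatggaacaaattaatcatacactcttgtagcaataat
Gained, 1208 bp from a start of Nrap, chr19:56378558-56378757: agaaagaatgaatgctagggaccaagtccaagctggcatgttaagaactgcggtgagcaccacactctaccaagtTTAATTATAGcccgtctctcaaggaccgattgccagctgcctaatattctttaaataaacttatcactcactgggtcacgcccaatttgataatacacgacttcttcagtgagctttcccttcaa
Gained, 11 bp from a start of Mb, chr15:77022639-77022838: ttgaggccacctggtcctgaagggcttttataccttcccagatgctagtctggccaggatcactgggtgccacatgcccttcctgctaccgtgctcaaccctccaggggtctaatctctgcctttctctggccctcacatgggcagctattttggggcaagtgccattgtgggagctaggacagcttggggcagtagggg
Gained, 101 bp from a start of Unc45b, chr11:82911053-82911252: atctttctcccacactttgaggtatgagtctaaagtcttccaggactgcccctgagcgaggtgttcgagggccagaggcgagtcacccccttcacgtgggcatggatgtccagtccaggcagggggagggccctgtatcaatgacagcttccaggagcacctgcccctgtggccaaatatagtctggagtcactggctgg
Gained, 18929 bp from a start of Tnnc1, chr14:31227162-31227361: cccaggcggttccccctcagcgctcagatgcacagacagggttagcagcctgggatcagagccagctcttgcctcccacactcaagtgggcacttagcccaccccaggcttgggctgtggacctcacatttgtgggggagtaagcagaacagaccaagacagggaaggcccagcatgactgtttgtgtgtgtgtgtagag
Gained, 7931 bp from a start of Myl2, chr5:122092921-122093120: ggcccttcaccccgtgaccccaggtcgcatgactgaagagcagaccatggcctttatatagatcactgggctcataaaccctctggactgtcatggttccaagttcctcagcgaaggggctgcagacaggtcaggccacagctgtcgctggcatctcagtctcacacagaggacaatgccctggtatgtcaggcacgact
The stretches in Celf2 and Rasl12 each hold an AP1 match, and that in Rasl12 a TEAD match as well. A MEF2 match stands in the lost region at Tnnt2 and in the gained region at Nrap, so that motif was present on both sides of the comparison. The gained region near Peg10, an imprinted gene, is a tandem array with 7 copies of the unit ggggtggt in the stretch shown. The gained regions at Mb, Unc45b, Tnnc1 and Myl2 hold no match to the 5 motifs in these letters.

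The lists differed in length before any comparison was made. The P3 libraries held 95257 and 52040 peaks, and the P7 libraries 49113 and 35898. Mean peak widths were 407, 457, 430 and 361 bp in the same order. Midpoints lay within 2.5 kb of a transcript start for 33.1% and 40.2% of the P3 peaks and for 42.3% and 51.2% of the P7 peaks. An exact two-sided permutation test over the 4 libraries (n = 2 per age) gave p = 0.333 for the number of peaks, 0.667 for the mean width and 0.333 for the promoter share, and 0.333 is the smallest p this design allows. The reads were not analysed here, so read depth behind each list is unknown and its part in the counts was not tested. Peak names of P7 replicate 1 carry the same stem as those of E18.5 replicate 1, although the latter list holds 13149 peaks.

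Lost regions outnumbered gained regions by each choice of peaks tried, and the margin narrowed when the lists were cut to equal numbers of top peaks. Ranking equal numbers of peaks by fold enrichment gave 1701 gained and 2647 lost regions, the top 20000 peaks by −log10 q gave 795 and 1081, and the top 10000 gave 460 and 542. A minimum −log10 q of 5 in the full lists gave 104 and 8709. Leaving out a library changed the rule as well as the data, since the call for that age then rested on the library that remained. This looser rule gives more regions of both kinds. Without P3 replicate 1, the longest list, 1614 regions were gained, without P7 replicate 1 there were 2122 and without P7 replicate 2 there were 1910. Lost regions numbered 45115 without P3 replicate 2 and 20864 without P7 replicate 1. P3 replicate 1 alone held 35905 regions (36.1% of all), and 11955 were held by both P3 libraries and P7 replicate 1 but not by P7 replicate 2.

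**Figure D1:**
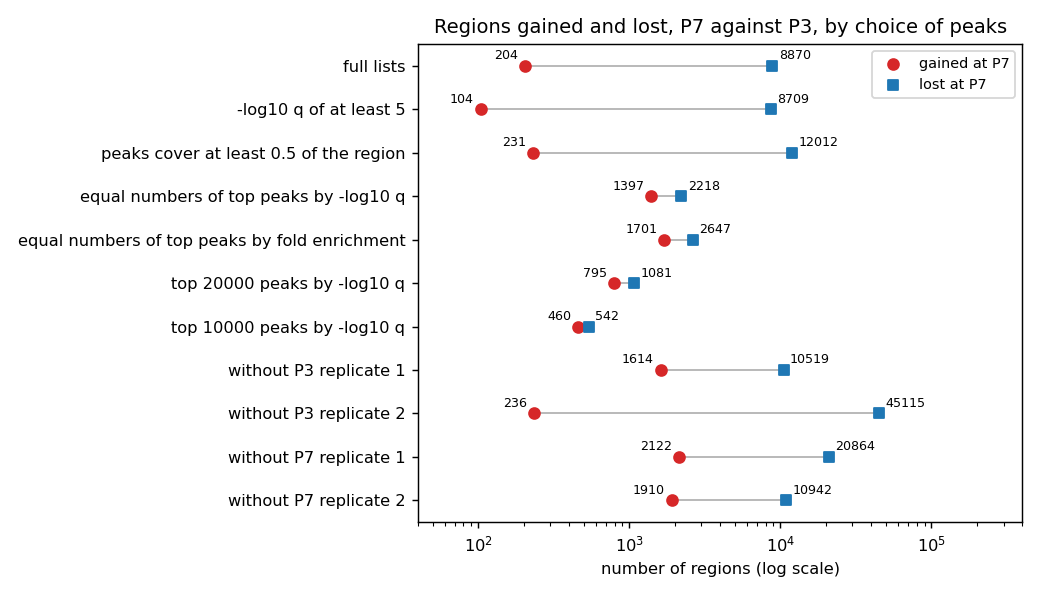
Number of regions gained (circles) and lost (squares) at P7 on a log axis, for the full lists, for other choices of peaks and with each library left out. The gap between 204 gained and 8870 lost in the full lists narrows to 460 and 542 with the top 10000 peaks of each list.

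The 204 gained regions were weak peaks, many of them already present before P3. Their fold enrichment at the summit ranged from 2.40 to 6.27 in P7 replicate 1, with a median of 3.56, and from 2.38 to 8.02 in P7 replicate 2, with a median of 3.61. All peaks of these libraries had medians of 4.57 and 4.35. The median −log10 q of the gained regions exceeded that of 19.8% and 25.6% of the peaks in the respective lists. For lost regions this share was 45.9% in P3 replicate 1 and 22.1% in P3 replicate 2, the latter between the values for gained regions. Lost regions had a median fold enrichment of 4.93 in P3 replicate 1 and 4.79 in P3 replicate 2, against 5.0 and 6.0 for all peaks of those libraries. A peak of the other age lay within 1 kb of 45 gained regions (22.1%) and of 840 lost regions with a peak of the other age on their chromosome (9.47%).

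At least 1 E18.5 or P1 library held a peak in 145 of the 204 gained regions (71.1%), close to the 71.2% of regions held by all 4 libraries. Among lost regions the share was 6.11%, and over all merged regions it was 26.6%. P1 replicate 1 held 56.9% of the gained regions and P1 replicate 2 held 54.4%, with 92 regions (45.1%) in both, whereas they held 4.43% and 0.823% of the lost regions. These P1 lists are short, with 29281 and 19753 peaks. The remaining 59 gained regions (28.9%) had a peak in no earlier list. At equal length the pattern kept its direction, with an earlier peak in 54.1% of gained and 9.87% of lost regions, against 45.1% of all. Most gained regions thus had a peak both before and after P3, and 93.9% of lost regions had one at P3 alone.

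Gained regions were rich in repeats. Of 197 gained regions on named chromosomes, 93 (47.2%) had at least 50% repeat-masked bases within 200 bp of the midpoint, against 3.63% of lost regions, 1.79% of those held by all 4 libraries and 4.58% of all. The median masked share was 40.8% in gained regions and 8.50% in lost regions. Among gained regions, it was 52.9% for the 142 with an earlier peak and 13.5% for the 55 without one. Chromosome 5 carried 25 of the gained regions and chromosome 8 carried 19. Within those, 14 lay at chr5:15031321-15689155, near genes of the Speer4 family, and 8 lay at chr8:20006352-20704744. At equal length 15.3% of gained and 2.84% of lost regions were at least 50% masked. Without such regions, and without those on unplaced scaffolds, 104 gained regions remained in the full lists.

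Of the 10 gained regions with the strongest peaks in both P7 libraries, 5 were at least 50% masked. The first, in an intron of 2700054A10Rik at chr17:13586345-13586518, had fold enrichments of 3.26 and 4.05 and was 70.8% masked. The region near Peg10 whose tandem array is shown above reached 5.59 and 8.02, and both P1 libraries held it. A region 54 bp from the start of 3110070M22Rik, at chr13:119488125-119488535, had 3.72 and 3.97, with no masked bases and a GC content of 75.5%. Regions near Frmpd1 (5.28 and 6.97) and in an intron of Pfdn4, which encodes a prefoldin subunit (4.07 and 4.46), were unmasked and present in both P1 libraries. The remaining 5 of the first 10 were those nearest to Gm21083, Vmn1r2, a pheromone receptor gene, Speer4cos, Gm5404 and the Y-linked Mid1-ps1, of which the last 2 were 100% masked. At equal length the first 10 included regions near Ryk (8.62 and 8.55), a Wnt receptor gene, in introns of Myo16 (7.62 and 7.69) and Cfap43 (7.20 and 7.0), near Bmp6 (6.63 and 6.70) and in an intron of Pcca (6.86 and 10.8). Of these 5, the regions at Cfap43 and Bmp6 were 100% masked.

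The strongest lost regions were distal and largely free of repeats. The first lay in an intron of Nedd9, a scaffold protein of focal adhesions, at chr13:41330805-41331408, with fold enrichments of 6.98 and 10 in the P3 libraries. No E18.5 or P1 library held it, and it also ranked second at equal length. Regions in introns of Celf2, an RNA splicing factor (10.1 and 11), and Rasl12 (7.48 and 9.26) followed. Further lost regions of the first 10 lay 29126 bp from Lpcat4 (8.87 and 13.6) and 77404 bp from Adra1a, an adrenergic receptor gene (10.7 and 9.54). Regions nearest to Slc22a22, Hccs, Pappa and Tmem167 were also among them, at distances of 66348 bp or more from the start of that gene. Fold enrichments of the 10 ran from 6.98 to 13.6, and none lay at a promoter. At equal length, introns of Adamtsl3 (9.18 and 11.6) and Man2a2 (8.37 and 10.3) and a region 207022 bp from Eya4 (8.79 and 11.8) also ranked among the first 4.

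Gained and lost regions had similar promoter shares in the full lists and differed at equal length. In the full lists 45 gained regions lay within 2.5 kb of a transcript start (22.1%, 95% Wilson interval 16.9 to 28.2%, counting error only). Lost regions did so in 1872 cases (21.1%), against 32.4% of all regions and 54.1% of those held by all 4. At equal length the share was 45.7% (43.1 to 48.4%) for gained and 17.2% (15.7 to 18.9%) for lost regions, against 39.8% of all. Promoter regions numbered 639 gained and 382 lost at equal length, so that their order was the opposite of that in the full lists. Of the 1397 gained regions at equal length, 1316 overlapped a peak in the full list of P3 replicate 1 and 816 one in that of P3 replicate 2, and 72 (5.15%) overlapped neither. Most of the equal-length gained regions thus held a lower-ranked P3 peak. Of the 2218 lost regions at equal length, 1160 (52.3%) overlapped no peak of either full P7 list. P7 replicate 2 was not shortened, so only P7 replicate 1 could add such peaks.

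Motif content differed between gained and lost regions. An AP1 match within 200 bp of the midpoint stood in 25.5% of 8861 lost regions (24.6 to 26.4%) and in 7 of 197 gained regions, or 3.55% (1.73 to 7.15%), against 24.0% of all regions. TEAD matches stood in 33.3% of lost and 12.2% of gained regions, against 29.5% of all. GATA matches stood in 19.7% and 11.2%, against 17.7%, and MEF2 matches in 4.80% and 2.54%, against 4.28%. The GC-rich SP and KLF motif (GGGCGG) stood in 10.9% and 9.14%, against 19.6% of all and 40.4% of regions held by all 4. For these 4 motifs of AP1, TEAD, GATA and MEF2, lost regions lay slightly above all regions and gained regions below them. Among regions under 50% masked, AP1 matches stood in 6.73% of gained and 25.3% of lost regions, TEAD matches in 13.5% and 33.3% and GATA matches in 15.4% and 19.6%. For MEF2 the difference was gone there, at 4.81% of gained, 4.74% of lost and 4.31% of all regions, and only 5 gained regions held a MEF2 match in all. Outside promoters the AP1 shares were 3.95% of gained and 27.3% of lost regions. At equal length AP1 stood in 12.1% of gained regions (10.5 to 14.0%) and 34.1% of lost regions (32.1 to 36.1%), against 24.4% of all, and TEAD in 18.9% and 38.5%, against 28.9%. The SP and KLF motif, with similar shares in the full lists, differed there, at 30.3% of gained and 7.45% of lost regions, against 27.4% of all. A base could count for several motifs, regions of 1 library are not replicates, and no test was run on these shares.

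**Figure D2:**
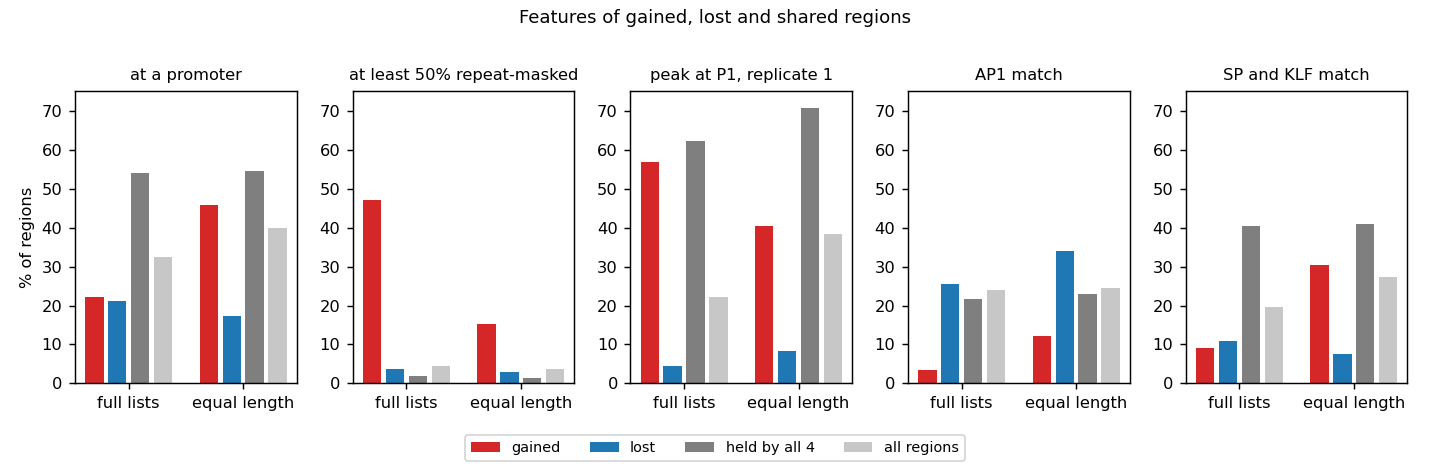
Percentage of gained, lost, shared and all regions that lay at a promoter, were at least 50% repeat-masked, held a peak in P1 replicate 1, or held an AP1 or SP and KLF match, for full lists and lists of equal length. Gained regions stand out in the full lists by a masked share of 47.2% and an AP1 share of 3.55%.

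The label of the cells was checked against marker genes before promoters were read gene by gene. Cardiomyocyte markers were expressed at both ages, but their summed level was 10899 and 8901 FPKM in the P3 RNA-seq libraries and 2846 and 1279 at P7. Of the 20 markers, 18 fell at P7 by limma (called, here and for all RNA below, at a Benjamini-Hochberg adjusted p under 0.05 with a log2 change beyond 1). Over all 13979 genes tested, 307 were lower (2.20%) and 189 higher (1.35%) at P7. Myh6, the adult myosin heavy chain, had 853 and 1062 FPKM at P3 and 190 and 68.5 at P7. Fibroblast markers summed to 1792 and 1862 FPKM at P3 and 3289 and 4090 at P7, and 6 of 12 rose, such as Col3a1, from 118 and 128 to 523 and 755 FPKM. Endothelial markers summed to 693 and 790 at P3 and 606 and 509 at P7, smooth muscle and pericyte markers to 1203 and 1378 against 1741 and 1947, epicardial markers to 205 and 169 against 323 and 334 (174 and 132 against 175 and 134 without Aldh1a2, the only one that rose), and macrophage markers to 199 and 163 against 144 and 121. Erythroid, Schwann and neuronal, and lymphocyte markers summed to at most 12.1 FPKM in any of the 4 libraries. In bulk samples, fewer cells of a type and less RNA per cell cannot be told apart. Without 1 RNA library the counts of higher and lower genes fell to 18 and 5 (P3 replicate 1), 22 and 4 (P3 replicate 2) or 44 and 62 (P7 replicate 2).

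Cardiomyocyte promoters had the most peaks in P7 replicate 2, although the RNA of these genes was lower at P7. Of the 20 markers, 10 and 9 had a promoter peak in the P3 ATAC-seq libraries, 8 in P7 replicate 1 and 16 in P7 replicate 2, the shortest list. Actc1, Csrp3, Mybpc3, Nkx2-5, Tnnc1 and Ttn, which encode sarcomere proteins except for the transcription factor Nkx2-5, had a promoter peak in P7 replicate 2 alone, at fold enrichments from 2.67 to 5.59. Sarcomere genes had 18 and 15 of 29 at P3, 17 in P7 replicate 1 and 21 in P7 replicate 2, and 25 of them fell in RNA. Of the cardiomyocyte markers 13 are also in the sarcomere list, and the other 16 sarcomere genes had 12 and 10 promoter peaks at P3 and 12 and 10 at P7. All 22 fatty acid oxidation genes had a promoter peak in P7 replicate 2, against 20 in each of the other libraries, and 4 of them fell in RNA. Fibroblast promoters did not differ, with 11 of 12 in each library. Endothelial promoters had peaks at 10 and 9 of 12 genes at P3, 10 in P7 replicate 1 and 5 in P7 replicate 2. Over all tested genes the share with a promoter peak was 91.5% and 87.4% at P3 and 86.3% and 85.3% at P7. With lists of equal length, cardiomyocyte promoters had peaks at 6 and 6 genes at P3 and at 7 and 16 at P7, and endothelial promoters at 3 and 6 and at 8 and 5. P7 replicate 2 was not shortened, so this cut could not narrow its lead at cardiomyocyte promoters and is no second support for it. At endothelial promoters the gap between the P7 libraries at equal length was no larger than that between the P3 libraries. The part of cell makeup in the gained and lost regions was not tested.

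**Figure D3:**
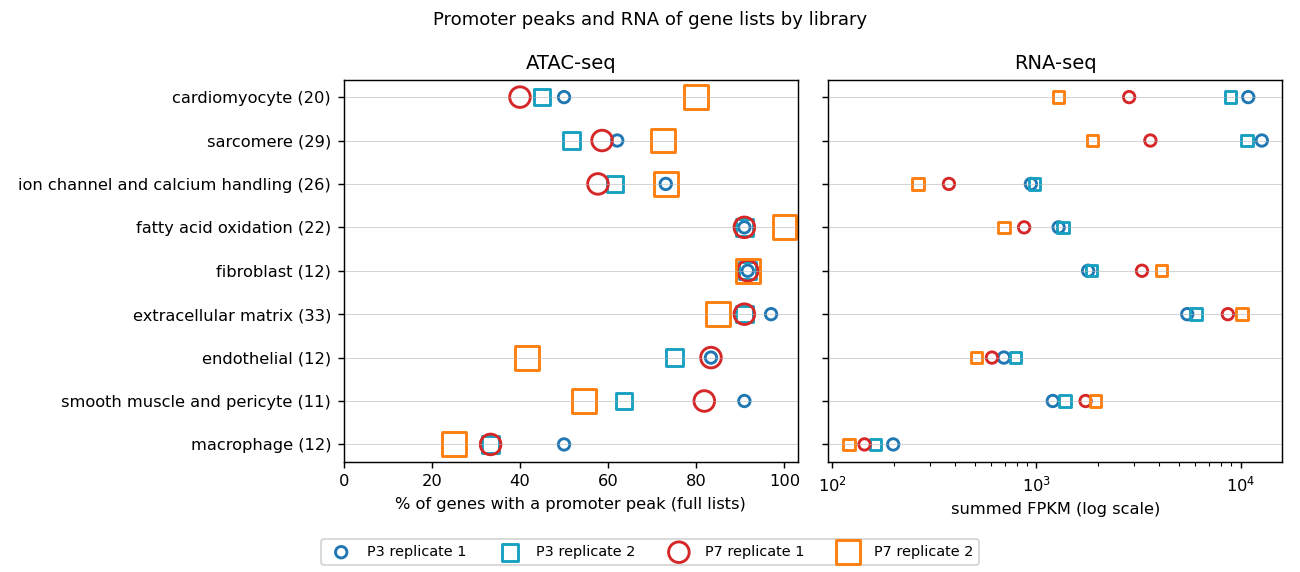
Percentage of genes of each list with a promoter peak in the full ATAC-seq lists (left) and summed FPKM on a log axis in the RNA-seq libraries (right). Circles are replicate 1 and squares replicate 2, larger marks on the left keep coinciding libraries visible, and the number of genes follows each list's name. P7 replicate 2 has the most cardiomyocyte promoter peaks (16 of 20) and the RNA-seq library of that name the lowest summed FPKM (1279).

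Genes near gained regions included several of the contractile apparatus whose RNA was lower at P7. Within 50 kb of the 204 gained regions were the starts of 191 tested genes (1.37% of those tested), of which 17 fell (8.90%) and 1 rose (0.524%), against 2.20% and 1.35% of all tested genes. The median log2 fold change over the 191 was −0.06, against −0.04 over all. All 17 had both P7 libraries below both P3 libraries, an order that the call itself makes likely. Of the 17 nearest regions, 15 held a peak in at least 1 P1 library. Of all 204 gained regions, P1 replicate 1 held 56.9% and P1 replicate 2 held 54.4%, with 45.1% in both. These shares are stricter measures than the 15, so they are not its like. The count of 17 is a description, and no test of it was run. It was 0 without RNA-seq P3 replicate 1 or P3 replicate 2 and 4 without RNA-seq P7 replicate 2. It also moved with the ATAC-seq library left out, which loosens the rule for gained regions and brings in more genes. Without P7 replicate 1 the share that fell was 5.21% of 2554 genes, without P7 replicate 2 it was 2.86% of 1961, and without P3 replicate 1 it was 3.50% of 1970. At equal length it was 2.87% of 1952, and with regions under 50% masked it was 8.15% of 135. Near lost regions it was 2.42% of 6499 genes, which are 46.5% of those tested.

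Among sarcomere and oxygen-handling genes, Tnnc1, cardiac troponin C, had 802 and 581 FPKM at P3 and 173 and 53.0 at P7 (log2 fold change −2.82, SE 0.470, limma adjusted p = 0.0163). Its gained region, in an intron of the neighbouring Sema3g, had fold enrichments of 2.73 and 3.14 at P7. Myl2, the ventricular myosin light chain, had 900 and 650 FPKM at P3 and 198 and 79.0 at P7 (−2.60, SE 0.405, limma adjusted p = 0.0133). Its region, with fold enrichments of 3.14 and 4.46, had peaks in all 4 E18.5 and P1 libraries. Both genes showed the same order of libraries in RNA, with P7 replicate 2 lowest. Mb, myoglobin, which binds oxygen in muscle, had 596 and 500 FPKM at P3 and 204 and 70.4 at P7 (−2.18, SE 0.424, limma adjusted p = 0.0277). The gained region at its promoter had fold enrichments of 3.23 and 3.07. Nrap, which acts in myofibril assembly, had 16.0 and 18.1 FPKM at P3 and 3.78 and 1.41 at P7 (−2.41, SE 0.339, limma adjusted p = 0.0113), and its region had 3.86 and 3.26. Peaks in it were also called in both E18.5 libraries but in neither P1 library. Unc45b, a chaperone of muscle myosin, had 27.8 and 29.7 FPKM at P3 and 9.04 and 4.94 at P7 (−1.94, SE 0.283, adjusted p = 0.0117), with fold enrichments of 3.30 and 4.54. Tpm1, tropomyosin (2621 and 2166 against 965 and 635 FPKM), and Myom2, a protein of the M band (36.3 and 31.9 against 12.3 and 3.94), also fell. So did Ankrd1, a stress-responsive muscle protein (791 and 909 against 471 and 305). The gained regions of Tpm1, Myom2 and Ankrd1 lay 8874, 23233 and 47420 bp from a start. The adjusted p of Mb was 0.059 to 0.154 without P3 replicate 1, P3 replicate 2 or P7 replicate 2, and that of Unc45b 0.0564 to 0.083. Tnnc1, Myl2 and Nrap missed the threshold without either P3 library, at 0.0616 to 0.109. With only P3 and P7 libraries fitted, Tnnc1 (0.0605) and Mb (0.0787) missed it, and without the filter on low values all 5 did, at 0.0948 to 0.163.

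Mitochondrial and other genes made up the rest. Nearness was the only link to these genes. The regions of Cox6a2, Coq8a, Frmd5 and Bik lay inside Itgad, Psen2, Wdr76 and Ttll1, while that of Mfn2 lay inside Mfn2. The region of Rcan2 was 45501 bp from a start. Cox6a2, the muscle form of a cytochrome oxidase subunit, had 153 and 109 FPKM at P3 and 36.3 and 9.12 at P7. Coq8a, which acts in coenzyme Q synthesis, had 40 and 37.1 against 10.1 and 5.05, and Mfn2, a mitofusin, 45.3 and 58.1 against 27.1 and 16.4. Kcnj5, a potassium channel gene (6.38 and 5.76 against 2.0 and 1.08), Rcan2, a calcineurin regulator (40.8 and 33.1 against 13.8 and 9.17), Frmd5, Hfe2, Lrrc4b and Bik completed the 17. Ddit4, an inhibitor of mTOR signalling, was the gene that rose, from 29.6 and 27.2 to 86.3 and 113 FPKM (log2 fold change 1.76, SE 0.181, adjusted p = 0.00562). Its region, 13435 bp away, had fold enrichments of 3.06 and 3.23 and no peak in an earlier list.

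**Figure D4:**
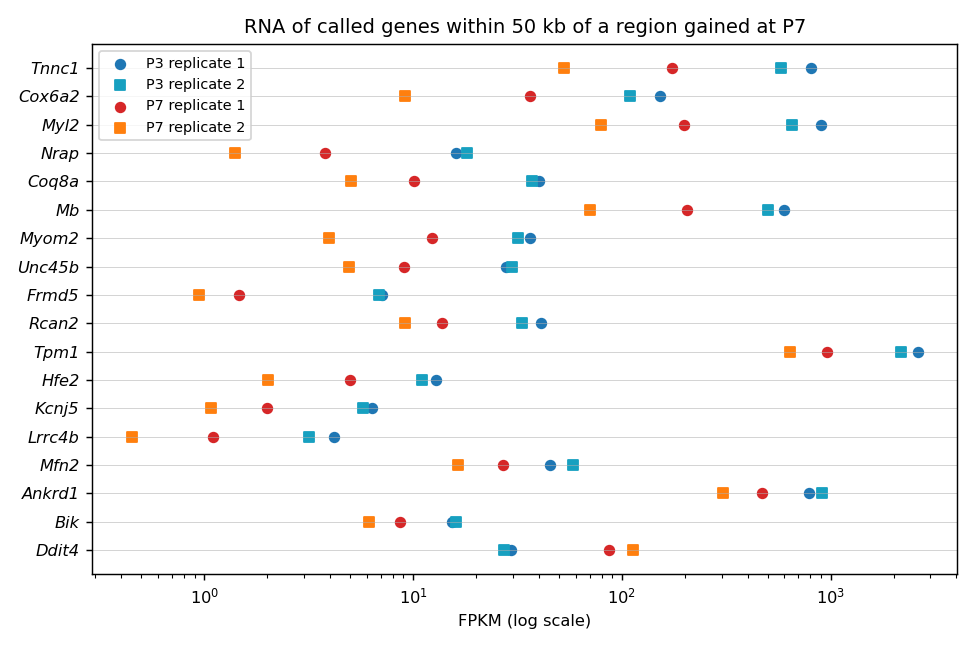
FPKM on a log axis in the 2 P3 and 2 P7 RNA-seq libraries for the 18 called genes with a start within 50 kb of a region gained in the full lists. In 17 genes both P7 libraries lie below both P3 libraries, and Ddit4 shows the opposite.

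At promoters, the full lists gave 56 genes with a gained region (0.101% of all genes in the files) and 2056 with a lost one (3.71%). Of the 20 tested genes with a gained promoter region (0.143% of those tested), 3 fell by limma (Mb, Nrap and Unc45b) and none rose. Of 938 with a lost region (6.71%), 32 fell (3.41%) and 18 rose (1.92%). Over all tested genes 2.20% fell and 1.35% rose. The median log2 fold change was −0.195 for genes with a gained and −0.04 for those with a lost promoter region, against −0.04 over all tested genes. No gene of the 21 lists had a gained promoter region in the full lists. Tnnt2, cardiac troponin T, had a lost region 1833 bp from a start with fold enrichments of 3.21 and 3.48 at P3, while another promoter region of the gene was held by all 4 libraries. Its RNA fell from 2678 and 2299 to 710 and 330 FPKM (−2.36, SE 0.341, adjusted p = 0.0117), with adjusted p of 0.0844 and 0.0616 without either P3 library. Nebl, nebulette, had 2 lost promoter regions and 29.6 and 25.2 against 7.27 and 2.96 FPKM, and Slc8a1, the sodium-calcium exchanger, also had 2, with 15.5 and 17.5 against 4.25 and 3.14 FPKM. Apobec2, Fxyd1, Coq8a, Sh3bgr, Tmod1, Rbm38 and Epn3 likewise fell. Coq8a had both a lost promoter region and a gained region 44875 bp from a start.

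Other genes with a lost promoter region rose in RNA. Kcne4, a potassium channel subunit, had 4.14 and 4.61 FPKM at P3 and 21.9 and 33.7 at P7 (log2 fold change 2.39, SE 0.290, adjusted p = 0.00977). Csf3, the granulocyte growth factor, had 9.97 and 8.75 against 36.6 and 36.6, and Aspn, a matrix proteoglycan, 0.405 and 0.404 against 3.27 and 5.05. Gbp5, Ptges, Sod3, Dram1, Zbp1, Serpine2 and AC161438.1 were the others of the 10 with the largest rise, and Loxl2, which crosslinks collagen, rose from 39.9 and 42.3 to 86.0 and 112 FPKM. Lost regions also stood at promoters of Fn1, Col4a1 and Mmp2 (matrix), Mef2c and Hdac5, Flt1 and Egfl7 (endothelial), Wt1 (epicardial), Tgfb1, Rrm2 (cell cycle), Etfb and Slc25a20 (fatty acid oxidation), Pgk1 and Eno1 (glycolysis), Cacna1c and Myl4, none of which was called in RNA. Th and Kcnd3, with FPKM of at most 0.121 in the 4 libraries, were not tested.

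At equal length, 794 genes (1.43%) had a gained promoter region and 418 (0.754%) a lost one. Of the 496 tested genes with a gained region (3.55% of those tested), 24 fell (4.84%) and 10 rose (2.02%). Of the 165 with a lost one (1.18%), 4 fell (2.42%) and 1 rose (0.606%). Over all tested genes 2.20% fell and 1.35% rose. Genes with starts within 50 kb numbered 1952 for gained and 1958 for lost regions, 14.0% of those tested in each case. Falls included Mylk3, cardiac myosin light chain kinase (39.6 and 36.2 against 9.80 and 3.40 FPKM), Eno3, muscle enolase (163 and 138 against 41.1 and 20.7), Fabp3, the heart fatty acid binding protein (223 and 219 against 83.8 and 33.7), and Ppp1r14c, Pcp4l1, Lmo7, Coro6, C130080G10Rik and Txlnb. Gja1, connexin 43, had a gained region 90 bp from a start (4.10 and 3.73) and 176 and 181 FPKM against 68.3 and 78.2. Hand2, a cardiac transcription factor, had 60.9 and 60.7 against 37.0 and 24.1. Angptl4, an inhibitor of lipoprotein lipase, had a gained region with 3.35 and 3.46 and 6.29 and 20.4 FPKM against 75.1 and 97.3 (log2 fold change 2.79, SE 0.530, adjusted p = 0.0253), and Adm, adrenomedullin, had 118 and 116 against 268 and 330. Gbp5, Pde1a, Rsad2, A4galt, Col5a3, Rab15, Igfbp5 and Sumo2 also rose. Gained regions of uncalled list genes stood at Lama4, Timp3, Eng, Ccnd1, Pfkp and Cacna1c. A region gained at equal length could still hold a lower-ranked P3 peak in the full lists. There the highest promoter fold enrichment at Eng was 4.58 and 4.48 at P3 against 3.45 and 3.70 at P7. At Timp3 it was 4.75 and 5.06 against 4.03 and 4.41. Lama4 had 4.69 in P3 replicate 1 and no promoter peak in P3 replicate 2, against 3.92 and 3.92 at P7. Among lost regions, Postn, the matrix protein periostin, had a region 54 bp from a start with 5.15 and 4.91 at P3 while its RNA rose from 112 and 115 to 240 and 361 FPKM, and Fhod3, Ank3, Nmrk2 and Tsc22d1 fell. Krt19, Ccnd3, Pfkp and Myl4 had a lost region and were not called. RNA thus moved in both directions among genes with gained and among genes with lost promoter regions.

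Of the 19 genes that the study names beside such data, 16 had a promoter region held by all 4 libraries, among them Pfkm, muscle phosphofructokinase (highest promoter fold enrichment 9.96 and 9.17 at P3, 4.83 and 6.54 at P7), and Ereg, epiregulin (7.05 and 7.72 against 6.44 and 5.38). Pfkm fell in RNA from 29.4 and 34.7 to 15.5 and 12.9 FPKM and Nexn, nexilin, from 78.9 and 75.4 to 28.4 and 21.6. Junb, an AP1 subunit, rose from 73.5 and 97.9 to 164 and 198 FPKM, with promoter values of 4.20 and 3.95 against 3.13 and 3.82. Of the 10 AP1 family genes it was the only one called. Trim72, a muscle membrane repair protein, had no promoter peak in any of the 4 libraries and fell from 53.0 and 45.4 to 13.6 and 5.17 FPKM. The study shows its promoter in a genome browser view, beside clusters of differential accessibility, with a transient or continuous increase. That description spans E18.5 to P7, whereas only the P3 and P7 peak lists were read here for this gene. Promoters of Dcn, a fibroblast gene (6.98, 6.96, 4.32 and 3.37), and Pecam1, an endothelial gene (5.41, 5.44 and 5.09, with none in P7 replicate 2), also had peaks. The study, from a genome browser view, describes both promoters as not accessible in its cardiomyocytes, which differs from these peak lists. The measures are unlike, since any peak with its midpoint within 2.5 kb of any transcript start of the gene counted here. Where these peaks lay within that reach was not examined. Hcn4, a pacemaker channel gene, had a promoter peak in P3 replicate 1 (3.17) and P7 replicate 1 (3.46).

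In regions held by all 4 libraries, fold enrichment was lower at P7 across the genome. Its median was 7.56 and 7.65 in the P3 libraries and 5.45 and 4.81 at P7, and the median difference of log2 values was −0.50. After each library was centred on its median, limma called 49 of 26700 regions higher (0.184%) and 4 lower (0.0150%) at an adjusted p under 0.05, while 2171 had an unadjusted p under 0.05. Centring removed a mean difference between the library medians of −0.571 on the log2 scale (P7 minus P3), and these changes are relative to it. Without centring 4 were higher and 7916 lower, and after quantile normalization none was called, with 1492 at an unadjusted p under 0.05. Without P7 replicate 1 there were 230 higher and 149 lower, without P7 replicate 2 there were 0 and 3, without P3 replicate 1 there were 68 and 0, and without P3 replicate 2 there were 25 and 0. The centred difference had a median of 0.07 over all shared regions, 0.16 at promoters, −0.05 in introns and −0.06 between genes.

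Repeats were frequent among the 49 higher regions. Of 44 on named chromosomes, 20 (45.5%) were at least 50% masked, 5 more lay on unplaced scaffolds, and 10.2% lay at promoters, against 54.1% of all shared regions. Of the 10 with the highest moderated t, 3 were on unplaced scaffolds, with fold enrichments from 19.4 to 29.9 in the 4 libraries. A region near Gphn at chr12:78350815-78351223 had 32.3, 30.6, 31.5 and 29.9, so it was higher only after centring (log2 difference 0.54 centred and −0.03 not centred). A region in an intron of Myo16, 1 of the first 10 gained at equal length, had 4.25 and 5.10 at P3 and 7.62 and 7.69 at P7 (centred log2 difference 1.29, SE 0.262, adjusted p = 0.00899). Regions nearest to Sspn (7.17 and 5.10 against 8.63 and 12.5) and Dpp10 (5.31 and 6.37 against 8.38 and 11.8) were also higher in both P7 libraries. Those nearest to Chrm3, Epm2a and Gnb1l were not, since P3 replicate 1 had the highest value of the 4. The 4 called lower regions were distal and separated the ages before and after centring. That 9504 bp from Prtg, at chr9:72797122-72797620, had 14.7 and 14.8 at P3 and 4.57 and 3.85 at P7 (centred log2 difference −1.24, SE 0.248, adjusted p = 0.00768). That in an intron near Anks1b had 13.6 and 12.9 against 4.83 and 3.85, that nearest to Foxa2 13.9 and 11.7 against 5.33 and 3.13, and that nearest to Penk 17.8 and 14.0 against 4.83 and 6.01. The next 6 by moderated t, near Zfp626, Prune2, Ttll11, Col2a1, Cldn1 and Ccbe1, had adjusted p from 0.0618 to 0.0859, with all P7 values below all P3 values.

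**Figure D5:**
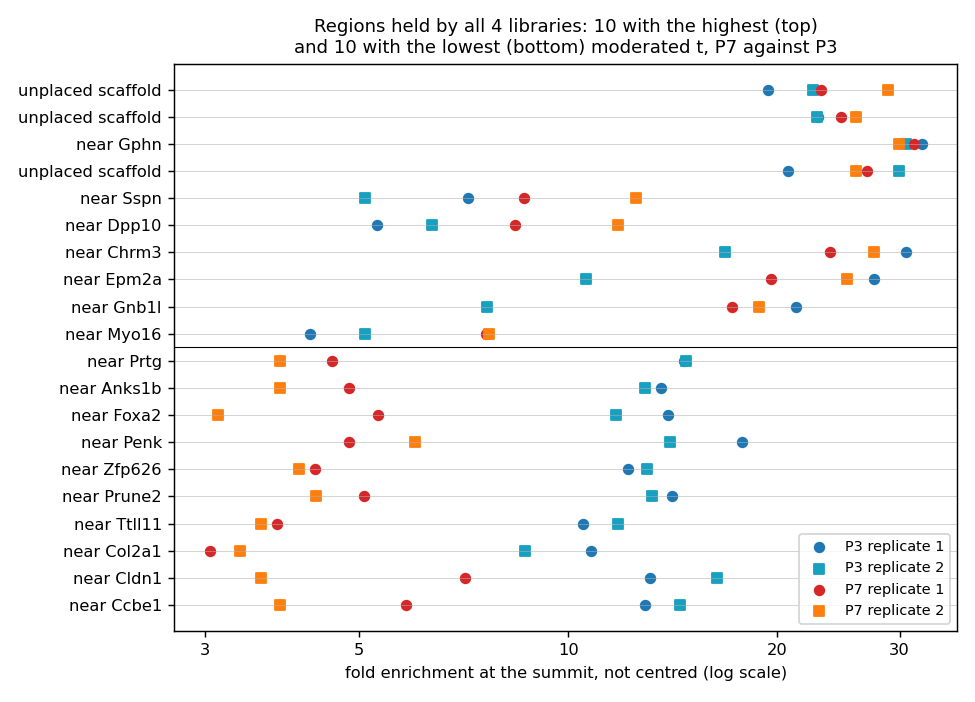
Fold enrichment at the summit, not centred and on a log axis, in the 4 ATAC-seq libraries for regions held by all 4: the 10 with the highest moderated t above the line and the 10 with the lowest below it, labelled by the nearest protein-coding gene. Below the line the P7 libraries lie at 3.05 to 7.11 and the P3 libraries at 8.66 to 17.8.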

How the data were processed

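ATAC-seq and RNA-seq were deposited for 2 libraries each of P3 and P7 cardiomyocytes. For ATAC-seq the authors trimmed reads with cutadapt, aligned them to mm10 with Bowtie2, removed duplicates with Picard and called peaks in each library with MACS2, and peaks in blacklisted regions were removed. The deposited peak files hold the integer score of the caller, the fold enrichment at the summit and the −log10 q of each peak, with no read counts. For RNA-seq the authors used HISAT2 2.1.0 and StringTie 1.3.5 on GENCODE vM21, and the deposited values used here are FPKM per transcript, summed per gene. The coverage in these files corresponds to 4.40 to 5.63 Gb of aligned bases per library.

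Peaks overlapping by at least 1 bp were merged. A promoter region has its midpoint within 2.5 kb of a transcript start of the deposited annotation. Motifs and repeat masking were read within 200 bp of the midpoint from the RefSeq copy of GRCm38.p6, whose coordinates are those of mm10. Motif letters were searched on both strands. Genes with at least 1 FPKM in 2 libraries were tested on log2(FPKM + 1) with limma 3.58.1 (R 4.3.3, moderated variance with trend) over all 8 mouse libraries, with P7 against P3 as the contrast and Benjamini-Hochberg adjusted p-values over all genes tested. Fold changes of low genes are understated on this scale. Fold enrichment in shared regions was tested on log2 values in the same way over the 4 libraries, after centring each on its median. The p-values measure the spread between libraries only. On simulated data, 200 changed features (a log2 change of 2) were called in 71% of cases for shared regions, with 0 false calls, and in 91.5% for RNA, with 5 false calls. The simulated noise was independent between features, with no deviation shared by a whole library. Calls there used the adjusted p alone, without the log2 limit of the RNA calls. These rates therefore do not give the error of the calls reported here. Other steps used Python 3.11.15, pandas 2.3.3, numpy 2.4.6, scipy 1.17.1, statsmodels 0.14.6 and pysam 0.24.0.

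The members, gene lists and tests were chosen with earlier results of these data known. Genes and regions were named by these rules: list genes with a gained or lost promoter region, genes named in the study, the 10 strongest gained and lost regions by the lower of their −log10 q values, the 10 shared regions with the highest and lowest moderated t, and, among called genes with a gained or lost promoter region, the 10 that rose most and the 10 that fell most. Called genes within 50 kb of a gained region, and single list genes given as examples, were named after their values were seen. The alternatives covered list length, peak threshold, overlap, promoter limit and annotation, motif window, centring, pseudocount, filter, unit, samples fitted, the replicate number as a block and each library left out. Rat data, chromatin contact data and the reads were not analysed here. A few genes that these rules would name are not reported here.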

Additional observations from a re-analysis of the deposited data

How the results depend on the processing

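Gained minus lost regions was negative under all alternatives tried, while the counts moved widely. With lists of equal length by −log10 q there were 1397 gained and 2218 lost (difference -821). By fold enrichment there were 1701 and 2647 (-946), with the top 20000 peaks 795 and 1081 (-286), and with the top 10000 460 and 542 (-82). A −log10 q of at least 5 gave 104 gained. Regions under 50% repeat-masked, an alternative chosen after seeing the data, also numbered 104. Leaving out 1 library loosens the rule and so raises both counts. It gave 236 to 2122 gained, 10519 to 45115 lost and a difference of -44879 to -8905. Promoter regions numbered 22 gained and 1086 lost within 1 kb, 2861 lost within 5 kb, 19 and 963 at expressed genes, 21 and 789 at RefSeq protein-coding starts, and 639 and 382 at equal length. Without 1 library, under that looser rule, promoter regions numbered 55 to 615 gained and 2332 to 10223 lost. AP1 shares were 1.52% and 18.1% within 100 bp and 12.1% and 34.1% at equal length.

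Shared regions higher and lower at P7 numbered 4 and 7916 without centring, 0 and 0 after quantile normalization (limma, 1492 at an unadjusted p under 0.05), 24 and 0 by −log10 q, 0 and 0 among regions held by all 8 libraries (337 at an unadjusted p under 0.05), and 0 to 230 and 0 to 149 without 1 library. RNA calls were 13 higher and 2 lower without the filter and 117 higher with a mean of at least 5 FPKM, and 18 to 193 and 4 to 328 without 1 library. Called genes within 50 kb of a gained region were examined under alternatives chosen after seeing the data. Lower genes numbered 0 without the RNA filter, 10 with P3 and P7 libraries only, 56 at equal length, 11 with regions under 50% masked, 0 to 19 without 1 RNA-seq library and 22 to 133 without 1 ATAC-seq library. Higher genes numbered 2 with a pseudocount of 0.1, 0 without the filter, 35 at equal length, 0 to 1 without 1 RNA-seq library and 2 to 32 without 1 ATAC-seq library. Leaving out an ATAC-seq library loosened the rule for gained regions, so more genes lay near such regions. In the fits, where a library was left out, the remaining one of its age was assumed to vary like the other groups. The cause of the other changes was not tested. Leaving out 1 library turned the sign of the RNA log2 fold change of 9 genes, whose ranges over these settings were -0.53 to 0.08 for Etfb, -1.19 to 0.06 for Ccnd3, -0.76 to 0.08 for Wt1, -0.05 to 0.11 for Csf1 (also -0.01), -0.01 to 0.13 for Adamts1, -0.23 to 0.01 for Stmn1, -0.00 to 0.07 for Irs2, -0.21 to 0.12 for Hmgb2 and -1.17 to 0.14 for Myl4. The difference of the region near Gphn was -0.03 without centring. None of the 9 genes was called with all libraries. Of the other values for named genes, 858 kept their direction and side of the threshold, 283 fell below it and 3 passed it. Read depth of the peak lists is unknown, which limits any statement on a missing peak.

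The labels give both ages the replicate numbers 1 and 2, with no statement that a number marks a shared litter or day. Deviations of same-numbered libraries correlated at 0.161 in ATAC-seq and 0.116 in RNA-seq, and with 2 pairs this does not establish pairing. With a replicate block, 28 shared regions were higher and 5 lower, and RNA calls were 184 higher and 263 lower. Taken alone, and so under a looser rule, pair 1 gave 2163 gained and 49023 lost regions (-46860), and pair 2 gave 5611 and 22921 (-17310).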
